A study of Homo sapiens with 48 samples.

Results

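The RNA interference machinery genes described here are 10 genes: the Argonautes AGO1, AGO2, AGO3 and AGO4, the nucleases DROSHA and DICER1, the double-stranded RNA binding proteins DGCR8 and TARBP2, the export receptor XPO5 and the effector TNRC6A. Their members on the array were the probes whose platform gene symbol, or older alias, was 1 of these names (EIF2C1 to EIF2C4 for the Argonautes and RNASEN for DROSHA). This gave 18 of the 48803 probes, and every probe was kept apart and numbered within its gene. The rule used no measured value, but the genes were chosen with earlier results of these data known.

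In the microRNA pathway, DROSHA and its partner DGCR8, together called the Microprocessor, cut a hairpin out of a primary transcript in the nucleus, and XPO5 carries the hairpin to the cytoplasm. DICER1, with TARBP2, trims it to a short duplex, and 1 strand is loaded into an Argonaute protein, which recruits TNRC6A and with it the enzymes that shorten and decay the target mRNA. A synthetic siRNA enters this route at Argonaute loading, and AGO2 is the Argonaute known for cutting a fully paired target. Liver cells are known for a high content of 1 microRNA made by this route, miR-122, and myeloid cells for miR-223.

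The siRNA of interest, INTG, was directed at a transcript between C5 and TRAF1. Its target is shown because every INTG value below comes from cells given this duplex, and the capitals mark the 19 bases after the leading AA.
INTG siRNA target: aaCTACGTGAAGAGGCCTCTG

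The 6 groups had 8 arrays each: Huh7 cells (a hepatoma line) given INTG, NC2 or NC1, and THP1 cells (a monocytic leukaemia line) given INTG, NC2 or NC1, where NC2 and NC1 are negative control siRNAs. All groups had been transfected, with 50 pmol siRNA on 300000 cells per well, and were collected 2 days later. The controls had thus also been given an siRNA, and no untransfected cells were used here. Uptake and Argonaute loading of the siRNAs were not measured. Each line had 4 experiments, each from its own culture passage, with 2 wells per siRNA, and the wells were averaged so that n is 4. Discovery comprised experiments 1 and 2 and validation experiments 3 and 4. A phase filled 1 slide per line, and slide and phase cannot be told apart. Within every experiment the array positions on the slide ran from NC1 through NC2 to INTG, so siRNA and position cannot be told apart either.

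Mean bead signals ran from 240.6 to 396.8 on the Huh7 arrays and from 122.2 to 478.2 on the THP1 arrays. The ratio of INTG to control signal was 1.02, 0.798, 0.738 and 0.819 in experiments 1 to 4 of Huh7, and 0.983, 0.986, 1.06 and 0.462 in those of THP1. Both INTG arrays of THP1 experiment 4 were dim, and the member differences that rest on them are given with and without them. The hepatocyte genes ALB, APOA1, APOB, TTR, FGB, TF and AHSG were detected on all 24 Huh7 arrays by every probe, and SERPINA1 on 18, 0, 24 and 24 by probe. In THP1, APOA1 was detected on 2 arrays, ALB on 1 and 0 and SERPINA1 on 0, 1, 0 and 0 by probe, and the others on 0. The myeloid factor SPI1 was detected on 0 Huh7 arrays and 24 THP1 arrays. Of the other monocytic markers, PTPRC, ITGAM, CSF1R and FCER1G were also detected on 0 Huh7 arrays, whereas LYZ was detected there on 24 and 19 arrays and CD14 on 5 and 24, by probe. In THP1, CSF1R and FCER1G were detected on 24 arrays, ITGAM on 18 and PTPRC on 12, 0, 12 and 12 by probe. LYZ was detected in THP1 on 22 and 7 arrays and CD14 on 0 and 16. Every LYZ and CD14 probe had a higher mean in Huh7. The brightest had 10.26 (LYZ) and 6.76 (CD14) in Huh7 and 7.51 and 5.85 in THP1. Of the T cell markers, CD3E and CD2 were detected on 0 Huh7 arrays and CD3D on 17, 15 and 0 by probe. Of the fibroblast markers, COL1A1 was detected on 0 Huh7 arrays, PDGFRB on 16, COL1A2 on 24 and 22 and LUM on 24 and 1 by probe. Their part in the results was not tested. In bulk RNA such as this, a lower level in each cell and fewer cells that express a gene cannot be told apart.

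Not every member was measurable. To enter the tests of a line, a probe had to be detected (p-value under 0.01) on 8 or more of its 24 arrays. That held for 11 probes of 9 genes in Huh7 and 12 probes of 9 genes in THP1, and 6 probes passed in neither line. AGO4, an Argonaute without known slicing activity, was detected on 0 of 24 Huh7 arrays and 6 of 24 THP1 arrays and was not tested. AGO1, the next protein-coding gene on chromosome 1 in RefSeq (GRCh38.p14), and AGO3, the next beyond AGO1, were both tested. DICER1 was read through probe 3 alone, since its probes 1 and 2 were detected on no array and probe 4 on 0 Huh7 and 7 THP1 arrays. DROSHA probe 2 was also detected on no array, and TNRC6A probe 2 on 5 Huh7 and 0 THP1 arrays. AGO3 probe 1 was tested in THP1 only (5 Huh7 and 14 THP1 arrays). AGO3 probe 2 (13 and 16 arrays) and TNRC6A probe 3 (13 and 8 arrays) were close to the detection limit, and the other tested probes were detected on 23 or 24 arrays in each line.

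In Huh7, 1 member was lower with INTG, DGCR8, and the other 10 tested probes did not pass the threshold of an adjusted p of 0.05 (limma, Benjamini-Hochberg over 13878 probes). Of all probes tested in that line, 22.3% were called, 12% on the lower side, so 1 of 11 lay below the background share. Over the 11 probes the INTG minus control differences had a median of 0.08 on the log2 scale, against 0.01 over all probes, and none was larger than 0.24 in size. The median size was 0.13 for the members and 0.13 for all probes. At an unadjusted p under 0.05, 4 of 11 members passed, against 35.5% of all probes. In no member did INTG keep to 1 side of both controls throughout the 4 experiments, as it did for 22.7% of all probes.

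DGCR8 is the RNA-binding subunit of the Microprocessor. In Huh7 its normalized log2 level in experiments 1 to 4 was 7.61, 7.76, 8.30 and 7.79 with INTG, 7.90, 8.20, 8.34 and 8.09 with NC2, and 7.94, 8.04, 8.24 and 8.11 with NC1. The INTG value lay below both controls in experiments 1, 2 and 4 and between them in experiment 3, which had the highest level with every siRNA. Means were 7.87 ± 0.30 with INTG, 8.13 ± 0.19 with NC2 and 8.08 ± 0.13 with NC1 (SD, n = 4). The fitted difference from both controls was -0.24 on the log2 scale (SE 0.074, 95% interval -0.40 to -0.08, adjusted p = 0.0383, limma). Against either control alone it was not called, at -0.27 against NC2 (adjusted p = 0.0569) and -0.21 against NC1 (adjusted p = 0.108, limma). The call was lost without experiment 1, 2 or 4 (adjusted p 0.161, 0.143 and 0.152, limma) and held without experiment 3, where the difference was -0.32 (adjusted p = 0.0168). The INTG arrays were dimmer than the controls in experiments 2 to 4, and with brightness as a covariate the difference was -0.28 and not called (adjusted p = 0.219, limma). Nor was it called without the experiment as a block (adjusted p = 0.578).

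The DGCR8 transcript is itself known as a Microprocessor substrate, and RefSeq (GRCh38.p14) places miR-1306 and miR-3618 within the gene on chromosome 22. Both mature arms of miR-1306 are printed because they lie within the gene whose transcript was lower with INTG. The seed, bases 2 to 8, is in capitals. The seeds of the arms differ, and neither mature microRNA was measured on these arrays.
hsa-miR-1306-5p: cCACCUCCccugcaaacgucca
hsa-miR-1306-3p: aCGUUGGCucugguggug

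XPO5, which exports precursor hairpins, was lower with INTG than with NC1 in Huh7. Its levels in experiments 1 to 4 were 6.93, 7.14, 7.65 and 7.48 with INTG, 7.01, 7.29, 7.86 and 7.47 with NC2, and 7.31, 7.49, 7.89 and 7.52 with NC1. INTG lay below both controls in experiments 1 to 3 and between them in experiment 4. Its difference from NC1 was -0.25 (SE 0.079, adjusted p = 0.0474, limma), the 1 of 11 members called in that contrast, against 18.5% of all probes. Against NC2 it was -0.10 (adjusted p = 0.404) and against both controls -0.18 (SE 0.068, adjusted p = 0.0854, limma). The call against NC1 was lost without any 1 of the 4 experiments (adjusted p 0.0555 to 0.213).

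TNRC6A, a GW182 protein that links Argonaute to the deadenylases, had a higher level with INTG than with NC2 through its probe 1. Levels in experiments 1 to 4 of Huh7 were 9.20, 9.21, 7.99 and 8.27 with INTG, 9.01, 8.97, 7.69 and 7.76 with NC2, and 8.99, 9.04, 7.84 and 8.32 with NC1. INTG was above both controls in experiments 1 to 3 and between them in experiment 4, and the shift between phases was larger than that between siRNAs. The difference from NC2 was 0.31 (SE 0.092, adjusted p = 0.0435, limma), the 1 of 11 members called there, against 16% of all probes. Against NC1 it was 0.12 (adjusted p = 0.419). Against both controls it was 0.21 (SE 0.080, adjusted p = 0.0786, limma), with 0.20, 0.20, 0.22 and 0.22 in experiments 1 to 4. Without any 1 experiment the call against NC2 was lost (adjusted p 0.0913 to 0.117), and under median scaling the difference from both controls was -0.02. TNRC6A probe 3, near the detection limit, differed by 0.13 (SE 0.132) and was not called.

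None of the Argonaute probes tested in Huh7 (AGO1, AGO2 and AGO3 probe 2) was called. AGO1, a non-slicing Argonaute in its usual description, had levels of 8.08, 8.10, 7.59 and 8.06 in experiments 1 to 4 with INTG, 8.36, 8.06, 8.09 and 8.02 with NC2, and 8.26, 8.35, 7.87 and 8.30 with NC1. It was below the control mean in all 4 experiments, but below both controls in experiments 1 and 3 only. The difference was -0.21 (SE 0.089, 95% interval -0.40 to -0.01, adjusted p = 0.119, limma). Under median scaling, where 27.6% of all probes were called, it was -0.41 and called (adjusted p = 0.00762, limma). AGO2, the slicing Argonaute on which siRNA activity depends, had 10.46, 10.60, 8.93 and 9.16 with INTG, 10.64, 10.65, 8.82 and 9.02 with NC2, and 10.65, 10.37, 8.39 and 9.17 with NC1. The groups overlapped throughout, and the AGO2 difference was 0.08 (SE 0.098, 95% interval -0.14 to 0.29, adjusted p = 0.614, limma). AGO3 probe 2 differed by 0.20 (SE 0.098, adjusted p = 0.166, limma).

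Neither nuclease nor the Dicer partner was called in Huh7. The levels of DICER1 probe 3 were 8.26, 8.52, 8.37 and 8.54 with INTG, 8.28, 8.37, 8.35 and 8.47 with NC2, and 8.27, 8.40, 8.52 and 8.67 with NC1. The groups overlapped in level, and the difference was 0.01 (SE 0.064, 95% interval -0.13 to 0.15, adjusted p = 0.947, limma). DROSHA probe 1 differed by 0.12 (SE 0.079, adjusted p = 0.322), with a positive difference in experiments 1, 2 and 4 and -0.19 in experiment 3. TARBP2, which steadies DICER1 and helps in loading, differed by 0.01 (SE 0.067) through probe 1 and by 0.08 (SE 0.084) through probe 2, and neither was called. An interval that spans 0 does not show that the siRNA left a gene as it was: the widest bound among the 11 probes was 0.42 on the log2 scale.

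**Figure D1:**
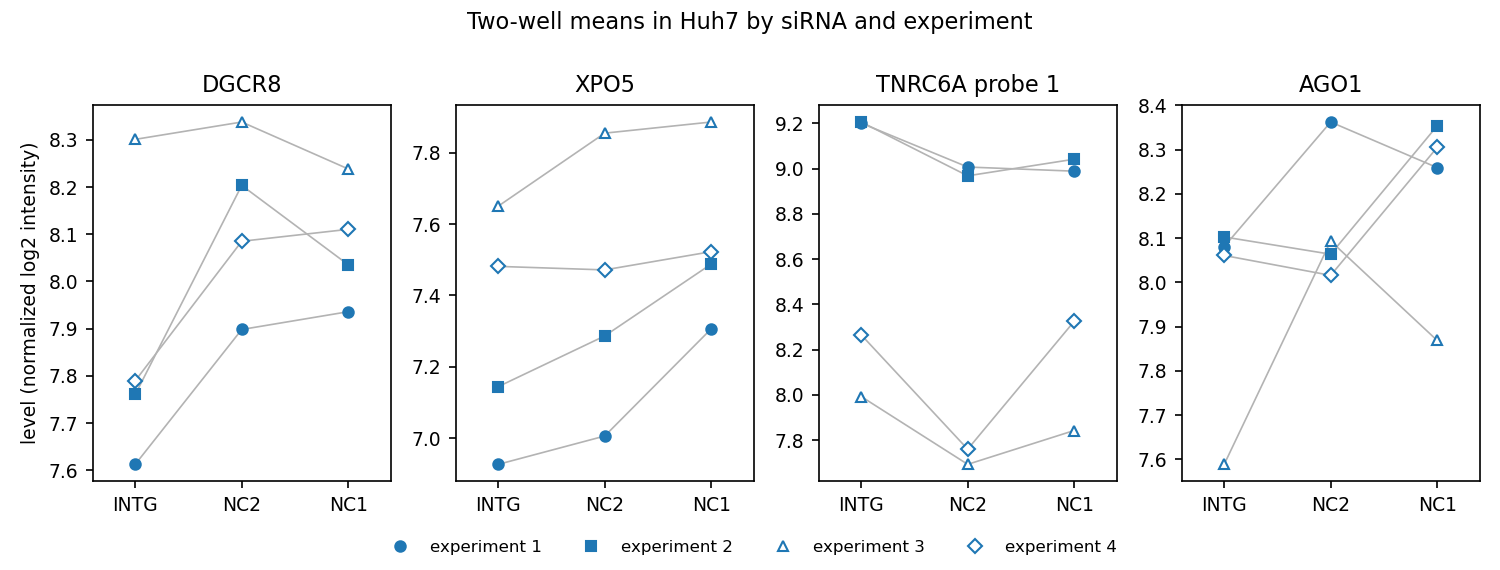
Two-well mean levels (normalized log2 intensity) of DGCR8, XPO5, TNRC6A probe 1 and AGO1 in Huh7 for INTG, NC2 and NC1, with 1 symbol per experiment, filled for the discovery and open for the validation phase. Grey lines join the values of an experiment. DGCR8 was lower with INTG than with both controls in experiments 1, 2 and 4, and TNRC6A probe 1 split by phase, near 9 in the discovery and near 8 in the validation experiments.

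In THP1 no member was called for INTG (0 of 12), and 0.0444% of the 13524 probes tested were called at all (6 probes). At an unadjusted p under 0.05, 1 of 12 members passed, XPO5, against 11.9% of all probes. XPO5 had levels of 8.80, 8.72, 9.23 and 8.79 with INTG, 8.99, 8.83, 9.33 and 9.14 with NC2, and 8.86, 8.88, 9.24 and 9.22 with NC1. Within each experiment INTG was below both controls, by as little as 0.02 against NC1 in experiment 3, and XPO5 was the 1 member of 12 with that order in all 4 experiments. Of all probes, 6.34% were below both controls in this way, and 8.84% below or above. The difference was -0.18 (SE 0.072, 95% interval -0.34 to -0.01, adjusted p = 0.407, limma), and without the dim arrays it was -0.10 (adjusted p = 0.560).

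The largest member differences of THP1 lay in experiment 4, the one with the dim INTG arrays. There DGCR8 differed by -1.41, TNRC6A probe 1 by -0.98, AGO3 probe 1 by -0.97 and DICER1 probe 3 by 1.06, while the median over all probes was -0.28. In experiments 1 to 3 these probes lay between -0.01 and 0.11 for DGCR8, 0.16 and 0.50 for TNRC6A probe 1, -0.12 and 0.01 for AGO3 probe 1, and 0.05 and 0.09 for DICER1 probe 3. The dim wells did not behave alike for DGCR8, with levels of 7.93 and 5.43, whereas they did for DICER1 probe 3, with 8.94 and 9.22. DICER1 probe 3 had 8.25, 8.42, 7.90 and 9.08 in experiments 1 to 4 with INTG, 8.28, 8.27, 7.93 and 8.01 with NC2, and 8.12, 8.38, 7.73 and 8.04 with NC1. The INTG value of experiment 4 stood clear above all control values of that line, and the others lay among them or just above.

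Over all 4 experiments the THP1 differences were -0.31 (SE 0.232) for DGCR8, 0.32 (SE 0.163) for DICER1 probe 3, -0.02 (SE 0.226) for TNRC6A probe 1 and -0.30 (SE 0.180) for AGO3 probe 1. Without the dim arrays they were 0.06 (SE 0.061), 0.07 (SE 0.068), 0.30 (SE 0.124) and -0.07 (SE 0.129). No member was called then (lowest adjusted p = 0.382, limma), where only 0.266% of all probes were called. In the discovery experiments alone, TNRC6A probe 1 was called higher with INTG in THP1, at 0.38 (adjusted p = 0.0415, limma), the 1 of 12 members called there, where 282 of all probes (2.09%) were called. AGO2 was 11.21, 11.55, 9.34 and 10.10 with INTG, 11.41, 11.66, 9.08 and 10.26 with NC2, and 11.28, 11.62, 9.33 and 9.59 with NC1, with overlapping groups and a difference of 0.02 (SE 0.122). AGO1, AGO3 probe 2, DROSHA probe 1, both TARBP2 probes and TNRC6A probe 3 differed by -0.08 to 0.07.

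**Figure D2:**
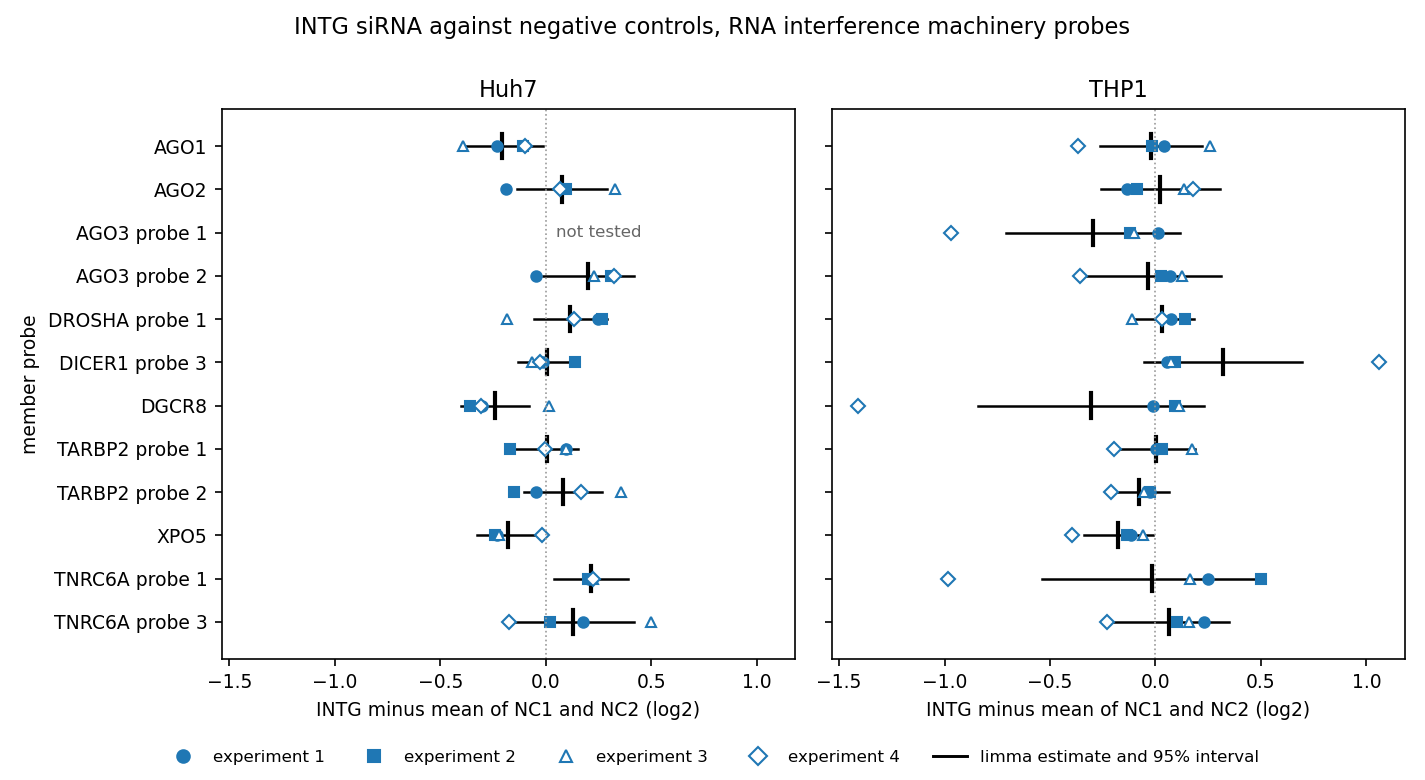
Difference of INTG from the NC1 and NC2 mean (log2) for the 12 member probes tested in at least 1 line, in Huh7 (left) and THP1 (right). Symbols are the 4 experiments (filled discovery, open validation), the thick tick is the limma estimate and the line its 95% interval. Huh7 values stay within 0.5 of 0 for the 11 probes tested there, while in THP1 the open diamonds of experiment 4 stand at -1.41 for DGCR8 and 1.06 for DICER1 probe 3.

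The size of the INTG effect was compared between the lines in a joint fit over 11542 probes. No member differed (0 of 11, also at an unadjusted p under 0.05), against 2.6% of all probes called and 18.1% at the unadjusted threshold. For DGCR8 the Huh7 minus THP1 difference of effects was 0.07 (95% interval -0.47 to 0.60), so the call in Huh7 and its lack in THP1 do not show a line-specific effect. For XPO5 it was 0.00 (95% interval -0.20 to 0.19), and for AGO2 it was 0.05 (95% interval -0.30 to 0.40). Without the dim arrays the difference of effects for DGCR8 was -0.30 (95% interval -0.50 to -0.10, adjusted p = 0.0818, limma), so its sign rests on those arrays. For AGO1 it was then -0.30 (95% interval -0.57 to -0.03, adjusted p = 0.216, limma). It was -0.07 for XPO5 (adjusted p = 0.699) and 0.10 for AGO2 (adjusted p = 0.796, limma). Among the members, only the intervals of DGCR8 and AGO1 excluded 0 without the dim arrays. Again 0 of 11 members were called, against 4.53% of all probes.

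The negative controls were compared with each other to show how far members move between siRNAs with no intended target. NC2 minus NC1 was called for 0 of 11 members in Huh7 and 0 of 12 in THP1, and no member passed an unadjusted p of 0.05 in either line. Of all probes, 0.476% were called in Huh7 and 0% in THP1, and 9.68% and 1.75% passed the unadjusted threshold. The largest member differences were 0.22 for AGO3 probe 2 in Huh7 (SE 0.114) and -0.27 for the same probe in THP1 (SE 0.173). In Huh7, TNRC6A probe 1 differed by -0.19 (95% interval -0.40 to 0.01) and XPO5 by -0.15 (95% interval -0.32 to 0.03) between the controls, beside INTG differences of 0.31 from NC2 and -0.25 from NC1. DGCR8 differed by 0.05 (95% interval -0.14 to 0.24).

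The lines differed more than the siRNAs did. Under the negative controls, 5 of 12 member probes were called between Huh7 and THP1, 2 higher in Huh7 (AGO1 and TNRC6A probe 3) and 3 lower (DROSHA probe 1, XPO5 and AGO3 probe 1). Of all 15860 probes tested in at least 1 line, 62.6% were called, 30.6% higher and 31.9% lower in Huh7, so the members' share lay below the background share. The same 5 probes had control values that did not overlap between the lines, against 58% of all probes (28.9% higher and 29.1% lower in Huh7). AGO3 probe 1 entered both counts only through THP1, the line where it is higher, so the filter favoured its call. Probes that entered through 1 line are also in the background shares. Each line was on its own slides, so line and slide cannot be told apart.

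DROSHA and XPO5 had lower values in Huh7. DROSHA probe 1 was at 7.60, 7.57, 7.66 and 7.89 in experiments 1 to 4 of Huh7 and at 10.06, 9.65, 9.16 and 9.43 in those of THP1. The lines did not overlap, and the DROSHA probe 1 difference was -1.89 on the log2 scale (SE 0.192, adjusted p = 1.91e-05, limma), a level 3.72-fold lower in Huh7. XPO5 was at 7.16, 7.39, 7.87 and 7.50 in Huh7 and at 8.92, 8.85, 9.28 and 9.18 in THP1. These values did not overlap either, and the difference was -1.58 (SE 0.177, adjusted p = 3.80e-05, limma), 2.99-fold lower in Huh7. DGCR8, the partner of DROSHA, was not called: its means were 8.11 ± 0.15 in Huh7 and 7.83 ± 0.27 in THP1 (SD, n = 4), a difference of 0.27 (95% interval -0.08 to 0.63, adjusted p = 0.163, limma) with overlapping values.

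AGO1 went the other way. It was at 8.31, 8.21, 7.98 and 8.16 in Huh7 and at 7.25, 7.01, 7.06 and 7.14 in THP1, with no overlap. The difference was 1.05 (SE 0.121, adjusted p = 4.80e-05, limma), a level 2.07-fold higher in Huh7. AGO3, its neighbour on chromosome 1, gave a lower level in Huh7 through probe 1, with 5.31, 5.04, 5.01 and 5.17 in Huh7 and 5.99, 5.97, 5.84 and 5.41 in THP1 (difference -0.67, SE 0.158, adjusted p = 0.00446, limma). That probe was detected on 3 of 16 Huh7 control arrays and 10 of 16 THP1 control arrays, so its Huh7 values lie mostly below the detection threshold. AGO3 probe 2 differed by -0.07 (95% interval -0.61 to 0.47), so the probes of AGO3 did not give the same call. AGO4 control means were 4.64 ± 0.05 in Huh7 and 5.24 ± 0.17 in THP1 (SD, n = 4), from a probe detected on 0 and 4 of 16 control arrays.

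TNRC6A probe 3 was at 5.43, 5.92, 5.42 and 5.43 in Huh7 and at 5.24, 5.42, 4.82 and 4.79 in THP1. The groups were separated by under 0.01, and the difference was 0.49 (SE 0.188, adjusted p = 0.0467, limma), from a probe detected on 8 and 4 of 16 control arrays. The call was lost without any 1 experiment (adjusted p up to 0.137). TNRC6A probe 1 had means of 8.45 ± 0.64 in Huh7 and 7.73 ± 0.56 in THP1 (SD, n = 4), a difference of 0.72 (SE 0.358, adjusted p = 0.106, limma). DICER1 probe 3 had means of 8.42 ± 0.12 and 8.09 ± 0.22, a difference of 0.32 (SE 0.141, 95% interval 0.00 to 0.64, adjusted p = 0.0722, limma). TARBP2 was lower by value in Huh7 through both probes, with differences of -0.76 (SE 0.326, adjusted p = 0.0682) for probe 1 and -0.63 (SE 0.323, adjusted p = 0.117, limma) for probe 2.

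**Figure D3:**
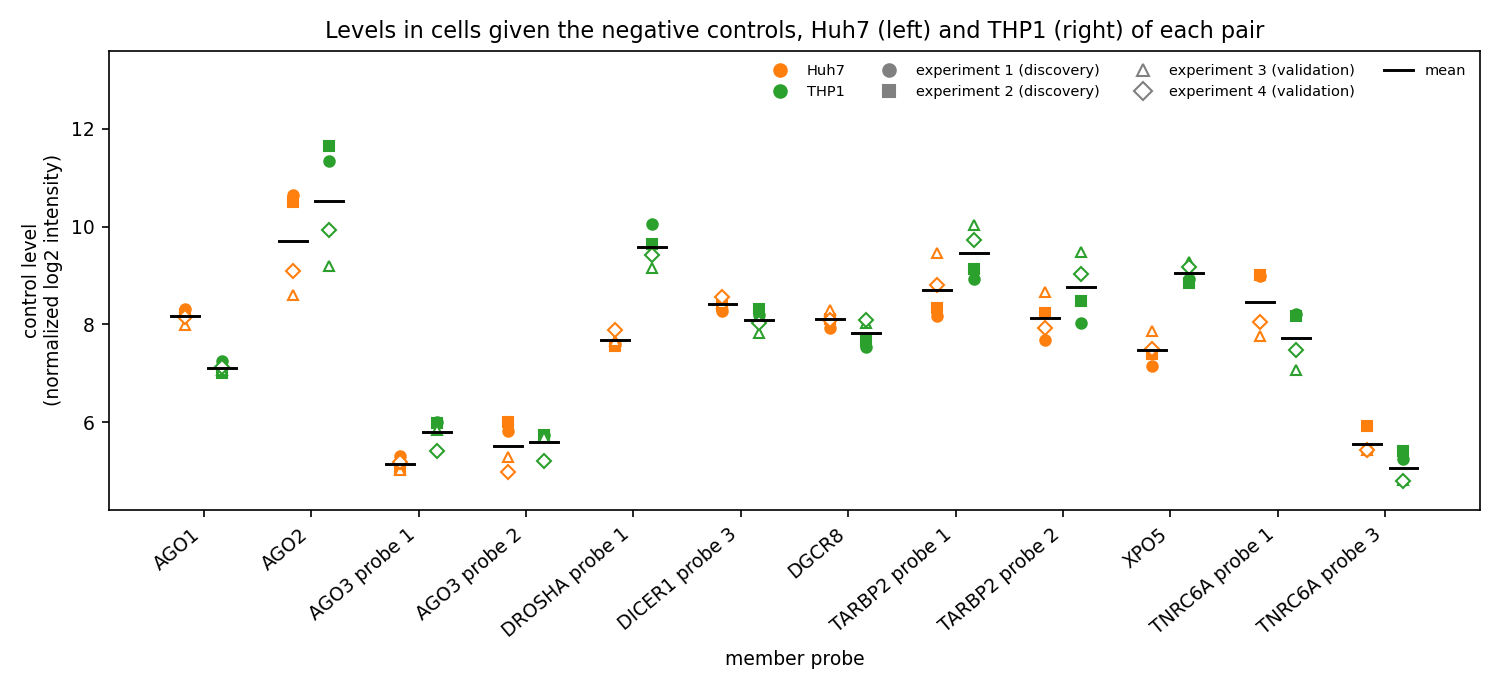
Control levels (normalized log2 intensity, mean of the NC1 and NC2 wells of an experiment) of the 12 tested member probes in Huh7 (orange, left of each pair) and THP1 (green, right). Filled symbols are discovery and open symbols validation experiments, and the bar is the mean of 4. DROSHA probe 1 and XPO5 are lower in Huh7 and AGO1 higher, with no overlap, and AGO2 falls into a discovery and a validation cluster in both lines.

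AGO2 was the member that varied most between experiments. Its control values were 10.65 and 10.51 in the discovery and 8.60 and 9.10 in the validation experiments of Huh7, and 11.34, 11.64, 9.20 and 9.93 in THP1. The validation minus discovery shift was -1.73 in Huh7 and -1.93 in THP1, where the median size over all probes was 0.269 and 0.287. TNRC6A probe 1 shifted by -1.10 and -0.92, and TARBP2 probe 1 by 0.88 and 0.84. These 3 of 11 members moved by over 0.8 with the same sign in both lines, as did 6.64% of the 11542 probes tested in both. The cut of 0.8 was not part of the planned design and lies just under the TARBP2 probe 1 shifts. The count therefore does not show that members shifted more often than other probes. TARBP2 probe 2 moved by 0.33 in Huh7 and 1.01 in THP1, and AGO1 by -0.19 and -0.03. The shift is given without a test, since 2 experiments stand on each side and phase and slide cannot be told apart.

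Across the 6 groups, AGO2 averaged 9.79 ± 0.86 with INTG, 9.78 ± 1.00 with NC2 and 9.64 ± 1.05 with NC1 in Huh7, and 10.55 ± 1.02 with INTG, 10.60 ± 1.18 with NC2 and 10.45 ± 1.16 with NC1 in THP1 (SD, n = 4). The THP1 groups had the higher means, and within a line neighbouring groups differed by far less than their SD. The Huh7 minus THP1 difference under the controls was -0.82 (SE 0.629, adjusted p = 0.287, limma). With phase as a term, a fit added after the phase shift had been seen, the SE fell to 0.179 and AGO2 was called lower in Huh7 (adjusted p = 0.00188, limma). The lower value in Huh7 held in both phases taken alone, at -0.92 in the discovery and -0.72 in the validation experiments, but the validation value was not called. Over 15 alternatives the difference lay between -0.94 and -0.09, with an adjusted p of up to 0.882 (limma). It was called in 2 of them, the discovery phase alone and the fit with phase as a term. With that term 9 of 12 members were called, against 72.3% of all probes, the added ones being AGO2, TARBP2 probes 1 and 2 and TNRC6A probe 1.

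**Figure D4:**
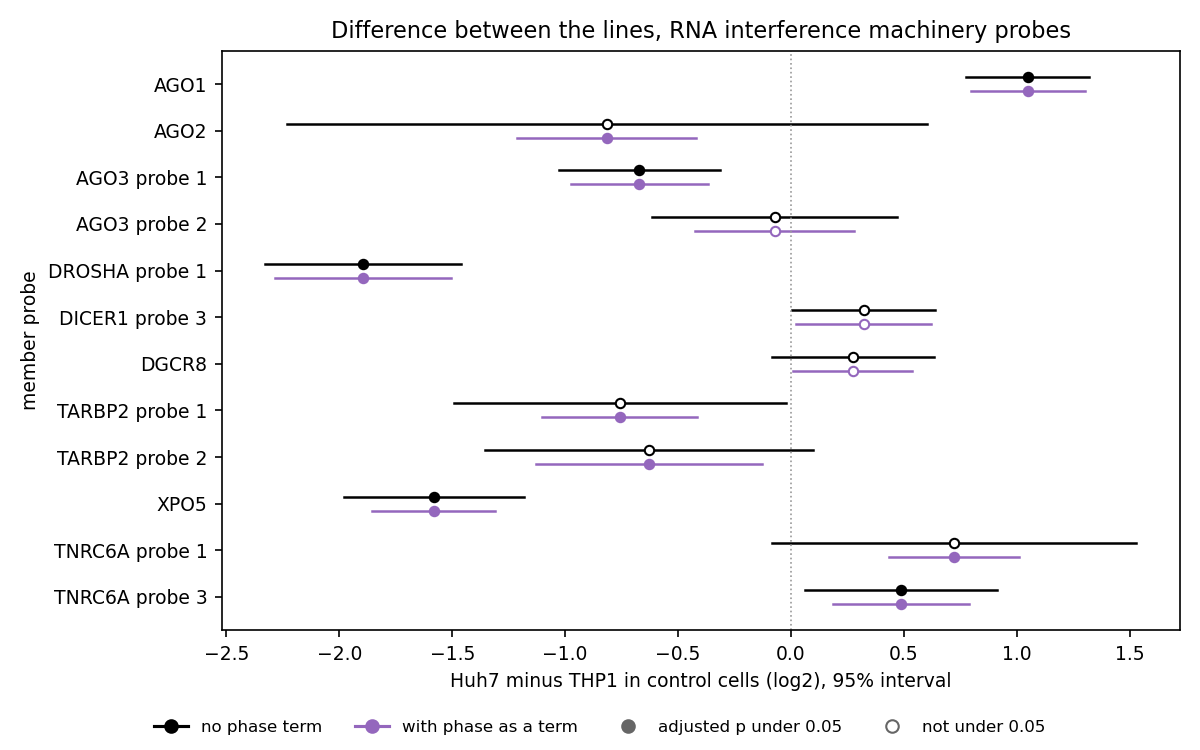
Huh7 minus THP1 difference in control cells (log2) with its 95% interval for 12 member probes, without phase (black) and with phase as a term (purple), where filled circles have an adjusted p under 0.05. The estimates are the same in both fits, and the interval of AGO2 narrows from -2.23 to 0.60 without phase to -1.21 to -0.42 with it.

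Beyond the members, 68 further genes of the pathway were followed in 5 lists, with 1 probe per gene. In Huh7, INTG raised 7 and lowered 5 of the 56 tested, against 10.3% and 12% of all probes. The median difference of the 56 genes was 0.08, against 0.01 over all probes. Of the nuclear processing and export partners, 1 of 10 was called: NCBP2, the cap-binding subunit of the complex that guides capped transcripts, fell by 1.11 on the log2 scale (SE 0.135, adjusted p = 0.000243, limma), and its other probe fell by 0.69. Of the loading partners and chaperones, STIP1, a co-chaperone that bridges HSP70 and HSP90, fell by 0.73 (SE 0.087, adjusted p = 0.000222), SND1, a nuclease found in silencing complexes, fell by 0.35 (adjusted p = 0.00185), and PRKRA, a TARBP2-like partner of DICER1, rose by 0.24 (adjusted p = 0.0129, limma).

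Among the silencing effectors, 4 of 24 rose and 1 fell in Huh7, against 10.3% and 12% of all probes. The deadenylase subunits CNOT7 and CNOT8 rose by 0.41 and 0.33, PAN3, a partner of the PAN2 deadenylase, by 0.30, and TNRC6B, a paralogue of TNRC6A, by 0.29 (SE 0.094, adjusted p = 0.0460, limma). The decapping enzyme DCP2 fell by 0.34. Of the genes for precursor editing, tailing and decay, TRIM71 and TUT4, a uridylating enzyme that acts on let-7 precursors, rose by 0.41 and 0.24, and the editing enzyme ADARB1 fell by 0.44 (3 called of 10, against 22.3% of all probes). Between the controls in Huh7 (NC2 minus NC1), TNRC6B differed by -0.25, CNOT7 by 0.23 and PRKRA by -0.19. NCBP2, STIP1, SND1, PAN3, DCP2, TRIM71, TUT4 and ADARB1 differed by -0.08 to 0.09. None of the 56 genes was called there, and 5 passed an unadjusted p of 0.05, against 9.68% of all probes. None of the 54 genes tested in THP1 was called for INTG (limma), where only 0.0444% of all probes were called. At an unadjusted p of 0.05, 6 of the 54 passed, against 11.9% of all probes. The INTG effect differed between the lines for NCBP2 (-0.88, adjusted p = 0.0259), STIP1 (-0.58, adjusted p = 0.0131) and PRKRA (0.40, adjusted p = 0.0306, limma), 3 of 52 genes, against 2.6% of all probes. In THP1, PRKRA differed by -0.16 for INTG and by -0.31 for NC2 minus NC1 (95% interval -0.52 to -0.09), neither called. NC2 minus NC1 there was 0.11 for NCBP2 and 0.02 for STIP1. The count of 3 genes whose effect differed between the lines was 1, 0, 0 and 1 without experiments 1 to 4 (0.381%, 0.546%, 0.199% and 2.4% of all probes). It was 0 with no replicate block, with the slide as the block, under median scaling, with brightness as a covariate and in the validation phase alone (at most 0.511% of all probes). The Huh7 count of 12 was 2 without the replicate block (2.4% of all probes), 2 with brightness as a covariate (3.83%), and 6 without experiment 1 (14.5%) or experiment 4 (12.7%). It was 26 with wells as separate arrays (27.3%) and 22 with no background correction (25.5%).

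Between the lines, 16 of the 58 further genes were higher and 16 lower in Huh7, against 30.6% and 31.9% of all probes. LIN28B, which binds let-7 precursors and holds back their processing, was detected on 24 Huh7 arrays and on 0 THP1 arrays, with means of 11.28 and 4.48. It was at least 49.3-fold higher in Huh7 (adjusted p = 2.19e-10, limma), a bound set by the dimmest detected probes of the THP1 arrays. TRIM71, a target of let-7, was detected on 24 Huh7 arrays and 2 THP1 arrays and was also called higher (adjusted p = 0.00206, limma). PIWIL4, of the PIWI clade, was detected on 0 Huh7 arrays and 24 THP1 arrays and was at least 5.08-fold lower in Huh7 (adjusted p = 8.01e-08, limma). The decay factor PATL1 was higher by 1.19 on the log2 scale, and the decapping cofactor DCP1A and the cap-binding complex subunit NCBP1 had differences of -1.41 and -1.01 (all called, limma). Under median scaling 10 of the 58 genes were called (37.4% of all probes), against 32 otherwise (62.6%), and 21 with the slide as a random block (49.8%).

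As a description, the genes whose values most resembled AGO2 and DICER1 were listed by Pearson's r over the 12 two-well means of a line after each experiment's mean had been subtracted, with no test. For AGO2 in Huh7 these were QKI (0.916), PPARG (0.913), OPA3 (0.905), RAI14 (0.903) and ARRDC3 (0.895) of 9341 genes, and in THP1 PIAS4 (0.919), NFATC2IP (0.916), AP2A2 (0.906), ZNF564 (0.906) and PTPRA (0.901) of 9098. No gene is in both AGO2 lists. For DICER1 probe 3 they were TMF1 (0.933), MAPKAP1 (0.929), ZMIZ1 (0.925), ZNF106 (0.922) and CREBRF (0.922) in Huh7, and CHST10 (0.989), AQR (0.987), GOLGA6L9 (0.985), F8A1 (0.982) and TTC19 (0.981) in THP1. The THP1 values of DICER1 include the dim INTG arrays of experiment 4, which stood 1.06 above the controls, and all values of a line share slides and brightness. Without that INTG mean (11 values, an alternative chosen after seeing the data), CORO1B (0.927) and URGCP (0.914) came first for DICER1 probe 3 in THP1, and DPF1 (0.968) and C2orf49 (0.960) for AGO2.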

How the data were processed

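The members and gene lists were chosen with earlier results of these data known. The authors deposited, per the file headers, an average bead intensity for each probe and array and a detection p-value for it. The authors' processed intensity table was used as an alternative. Tools named in the submitters' processing notes are lumi and limma, without versions, and the sources used here give no further steps. Of 48803 probes, 8 with blank values were left out. Genes were named through the platform annotation, and RefSeq (GRCh38.p14) gave neighbours and microRNA sequences. Normexp correction used the detection p-values and an offset of 16, and the signals were then quantile normalized over 48 arrays and set on the log2 scale with neqc (limma 3.58.1, R 4.3.3). Each line was fitted in limma with siRNA and experiment as terms (6 residual degrees of freedom) on two-well means. INTG was set against the mean of NC1 and NC2 and against each, and NC2 against NC1. A joint fit compared INTG effects, and control means compared lines. Adjusted p-values are Benjamini-Hochberg over all probes tested, at 0.05. Same-numbered samples share a passage per the labels, and their deviations correlated at 0.458 to 0.918. All member probes were named; every sample was given for those called in a contrast, for the best detected AGO2 and DICER1 probes and, chosen after its values were seen, for AGO1 in Huh7 under each siRNA. Other pathway genes were given as counts, with named examples chosen for small p or bounds. For several probes of a gene, the brightest was taken. The number of arrays limits the precision. Fits were tested on simulated data.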

Additional observations from a re-analysis of the deposited data

Results flagged for a closer look

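Each group of 4 experiments was searched for a single experiment far from the other 3, by the gap to its neighbour relative to the group's range. This marked 6 of 69 groups, where chance alone marks about 1 in 20. AGO1 with INTG in Huh7 was at 7.59 in experiment 3 and between 8.06 and 8.10 in the others. XPO5 with INTG in THP1 was at 9.23 in experiment 3 and between 8.72 and 8.80 in the others. The other 4 were AGO3 in experiment 4 of THP1. AGO3 probe 1 was at 4.44 with INTG (5.74 to 6.00 in the others) and at 5.12 with NC1 (5.95 to 6.03). AGO3 probe 2 was at 4.84 with INTG (5.75 to 5.83) and at 4.72 with NC2 (5.60 to 5.77). Only the INTG arrays of that experiment were dim, at 0.462 of the control signal, whereas 1 control of each AGO3 probe was also low there. Both probes lie near the detection limit.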

How the results depend on the processing

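Of 1950 comparisons of 115 named differences with an alternative, 1677 kept direction and call, 44 lost and 34 gained the call, 194 changed sign while uncalled and 1 was called with the sign turned. That was TNRC6A probe 1 in THP1, at -0.02 for INTG overall and 0.38 in the discovery phase alone (adjusted p = 0.0415, limma); it was also the 1 member called there for THP1, against 0 in all 4 experiments, and 2.09% of all probes were called there, against 0.0444%. The Huh7 INTG count of 1 (22.3% of all probes called) became 0 with no replicate block (2.4%), with the slide as the block (8.16%), with no detection filter (5.19%), with brightness as a covariate (3.83%) and in the discovery (8.77%) or validation phase (5.89%) alone. It became 2 with wells as separate arrays (27.3%), with no background correction (25.5%) and with probes detected on all 24 arrays (29.5%), and 3 under median scaling (27.6%). Leaving out 1 experiment gave 0 to 1 (12.7% to 18.0%). DGCR8 lay between -0.43 and -0.15 over 17 alternatives and was called in 8. The line count of 5 (62.6% of all probes) became 3 under median scaling (37.4%) and with probes detected on all 24 arrays (66.3%), 8 with array weights (68.1%), with brightness as a covariate (64.8%) and in the discovery phase alone (70.2%), and 9 with phase as a term (72.3%), which was chosen after seeing the data. AGO1, DROSHA probe 1 and XPO5 kept their line call and direction in all 15 alternatives. The authors' values were not run for the line comparison, since their slides appear to have been normalized separately. No cause of these changes was tested beyond what the alternatives themselves vary. In Huh7 the 95% intervals of most members reached past 0.2 on the log2 scale. The offset of 16 compresses differences of probes near background.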
